A study of Mus musculus with 8 samples.

Results

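The genes described here encode the clotting factors, the proteins that dissolve clots, the kinin-releasing system and the protease inhibitors of blood plasma. They were taken by name, 36 genes out of 52550 mouse gene identifiers in the count tables, and all 36 were found. Their transcripts were counted in livers of male C57BL/6 mice aged 6 weeks, with 4 libraries of genotype PiZ and 4 of genotype PiZ/Chop-/-. PiZ mice carry the human gene for the Z variant of the plasma protease inhibitor alpha-1 antitrypsin (SERPINA1), a protein that misfolds and stays in the endoplasmic reticulum of hepatocytes. Both groups carried it. PiZ/Chop-/- mice lacked in addition Chop (Ddit3), which encodes CHOP, a transcription factor switched on by stress of the endoplasmic reticulum. The comparison asks which of these transcripts differ when CHOP is missing from a PiZ liver. The promoter of the transgene, the part of Chop that was removed, and whether every library came from a separate animal, are not stated in the labels. The p-values below therefore describe the spread between these libraries, which may be technical. Wild-type livers were not analysed here.

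Hepatocytes make most plasma clotting proteins as inactive precursors and secrete them through the endoplasmic reticulum, the compartment that the Z variant loads. In clotting, a chain of serine proteases activates prothrombin, and thrombin then cuts fibrinogen into fibrin. Plasmin, made from plasminogen, dissolves the fibrin again, and inhibitors of several families hold the proteases in check. A few members (Vwf, Thbd, Tfpi, Plat) are known mainly from endothelium, and Plau and Plaur from leukocytes and injured tissue.

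The method (QuantSeq) counts the 3' ends of messenger RNAs. Levels below are CPM, counts scaled to a library of 1000000. A fold change above 0 means a higher level in PiZ/Chop-/-, and fold changes are on the log2 scale. Libraries held 1650260 to 3064385 counts, and 8669 genes entered the test. Ddit3 followed the labels, at 85.4 to 191 CPM in the PiZ libraries against 1.72 to 4.19 CPM in those without Chop. SERPINA1, the transgene, ranged over 950.2 to 1845 CPM in PiZ against 554 to 712 CPM in PiZ/Chop-/- (log2 fold change -1.23, adjusted p = 0.00873, edgeR, a call lost without PiZ/Chop-/- library 3 at adjusted p = 0.0575). The groups thus differed in transgene RNA as well as in Chop. Any effect of the first on the members cannot be told apart from the loss of CHOP in this design. All 10 hepatocyte markers were abundant enough to be tested, with a summed level of 26914 to 38563 CPM in PiZ and 30151 to 37491 CPM in PiZ/Chop-/-. In bulk tissue, fewer cells of a type cannot be told apart from less RNA per cell.

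No clotting or inhibitor transcript passed the test between the groups. Of the 36 members 30 had enough counts to be tested, and 0 of the 30 reached an adjusted p under 0.05 with edgeR's quasi-likelihood test, against 1.03% of all genes tested. DESeq2 called 1 of 33 members (Mug1), against 2.01% of all genes it tested. With low genes kept, edgeR called 1 of 36 (Mug1), against 1.8% of all genes, and limma-voom called 0 of 30, against 0.831%. At an unadjusted p under 0.05 edgeR gave 5 of the 30, or 16.7%, close to the 13.1% of all genes tested. These were Mug1, Klkb1, F9 and Itih1, with levels above those of PiZ, and Ahsg, with a level below. For 4 of the 30 the groups did not overlap (13.3%, against 7.88% of all genes tested), namely Mug1, Klkb1, F9 and Ahsg. Among the fold changes 19 were above 0 and 11 below, with a median of 0.15, beside a median of -0.0016 over all genes tested.

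The 95% intervals say how large a change could have gone unseen. For 27 of the 30 members the interval lay wholly within a 2-fold change in either direction, and for 10 within a 1.5-fold change. The 3 whose interval reached past 2-fold were Mug1 and Klkb1 on the upper side and Serpine2, a low transcript, on the lower side. Fold changes of single members ran from -0.60 (Serpine2) to 0.79 (Mug1).

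**Figure D1:**
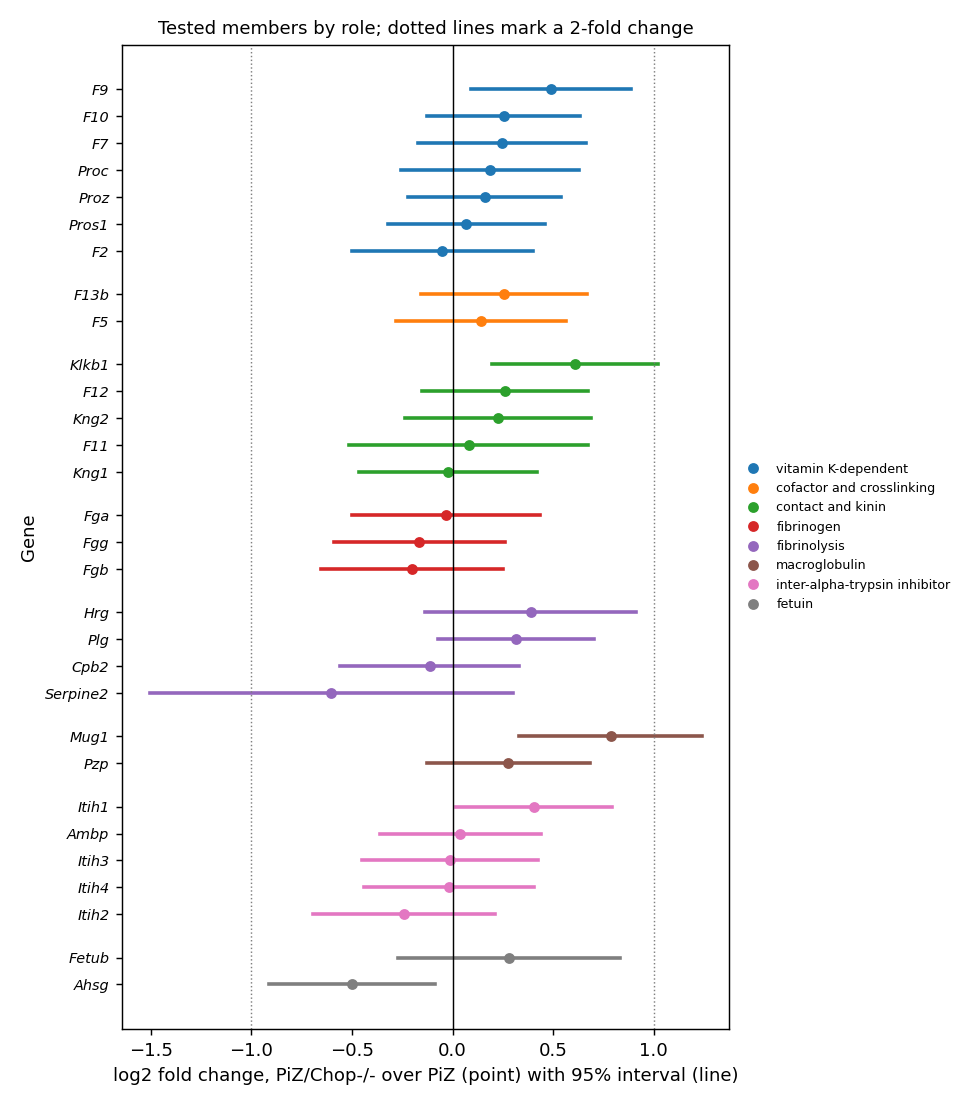
Log2 fold change of PiZ/Chop-/- over PiZ (horizontal axis) for each of the 30 tested genes (vertical axis, grouped and coloured by role); points are estimates and lines 95% intervals from edgeR. The intervals of Mug1, Klkb1, F9 and Itih1 lie above 0 and that of Ahsg below 0 before adjustment for the 8669 genes tested, and 27 of the 30 lie within the dotted lines of a 2-fold change.

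Vitamin K-dependent factors are proteins whose glutamates must be carboxylated before they can bind calcium and membranes. All 7 (F2, F7, F9, F10, Proc, Pros1 and Proz) were tested, none passed, and 6 of the 7 fold changes were above 0. F9 encodes factor IX, the protease missing in haemophilia B (ENSMUSG00000031138, chromosome X, 59999464 to 60030759, mm10). Its level was 181, 257, 238 and 168 CPM in PiZ libraries 1 to 4 and 334, 275, 286 and 292 CPM in PiZ/Chop-/- libraries 1 to 4. Every PiZ/Chop-/- library was thus above every PiZ library, with the closest pair 257 against 275 CPM. The log2 fold change was 0.49 (SE 0.19, n = 4 each), with an adjusted p of 0.280 (edgeR). The exact two-sided permutation p was 0.0286, the smallest that 4 against 4 can give. Any gene whose groups do not overlap gets that value, so it repeats the separation and adds no evidence to it. Without PiZ libraries 1 and 4, which held the lowest F9 levels, the log2 fold change was 0.26 (adjusted p = 0.601, edgeR). F2, prothrombin, was level between the groups: 1910 CPM, 1936, 1650.2 and 2895 CPM in PiZ and 2020.1 CPM, 1783, 2397 and 1900.1 CPM in PiZ/Chop-/-. PiZ library 4 held both the highest F2 level and most of the spread, and the log2 fold change of -0.051 (SE 0.21, adjusted p = 0.946) was 0.16 without that library. The proteases factor VII (F7) and factor X (F10) had fold changes of 0.25 each (adjusted p = 0.631 and 0.583). Protein C (Proc) and its cofactor protein S (Pros1), which together switch off factors V and VIII, had 0.19 and 0.069 (adjusted p = 0.752 and 0.912). Proz, protein Z, had 0.16 (adjusted p = 0.753).

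F5, the cofactor that speeds prothrombin activation, ranged over 350.6 to 480.4 CPM in PiZ libraries against 379 to 595 CPM in those of PiZ/Chop-/- (fold change 0.14, adjusted p = 0.807 by edgeR; 0.052 without PiZ library 1 and 0.026 without PiZ/Chop-/- library 3). F13b, the carrier subunit of the enzyme that crosslinks fibrin, ranged over 86.8 to 140.2 CPM against 119 to 170.3 CPM (0.26, adjusted p = 0.611). For both genes the groups overlapped.

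The contact and kinin system starts clotting on charged surfaces and releases bradykinin, a peptide that widens vessels. None of its 5 genes passed. Klkb1, plasma prekallikrein, the protease that cuts kininogen, had the highest fold change of the 5 (ENSMUSG00000109764, chromosome 8, 45266689 to 45294859, minus strand, mm10). It stood at 180.2, 280.3, 242 and 212 CPM in PiZ libraries 1 to 4 and at 297, 303 (library 2), 390.2 and 402 CPM in PiZ/Chop-/- libraries 1 to 4. The lowest PiZ/Chop-/- library was above the highest PiZ library. The log2 fold change was 0.61 (SE 0.19, 95% interval 0.20 to 1.02), with an adjusted p of 0.188 (edgeR) and an exact two-sided permutation p of 0.0286. Without PiZ libraries 1 and 4, the log2 fold change of Klkb1 was 0.42 (adjusted p = 0.405, edgeR). F11, the neighbouring gene on the same strand and an evolutionary relative of Klkb1, encodes factor XI. It was low, at 11.4 to 24.8 CPM in PiZ and 15.8 to 22.4 CPM in PiZ/Chop-/-, and its fold change was 0.080 (adjusted p = 0.933). F12, factor XII, which starts the contact reaction, had 0.26 (adjusted p = 0.605).

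Kng1 and Kng2 encode kininogens, the precursors of bradykinin. Their fold changes were -0.022 for Kng1 and 0.23 for Kng2 (adjusted p = 0.976 and 0.702, edgeR). In both genes PiZ library 4 was the lowest of the 8 libraries, with 2243 CPM for Kng1 and 247 CPM for Kng2. The genes are close copies: of the windows of read length (75 bases) in the last 500 bases of their transcripts, 4.23% in Kng1 and 8.60% in Kng2 also occur in the other gene. The split of reads between them is therefore uncertain for that part.

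Fibrinogen, the precursor of fibrin, is assembled from 3 chains whose genes lie side by side within 42.1 kb of chromosome 3 (83007724 to 83049863, mm10). None of the 3 transcripts passed the test, and 1 PiZ library stood above the rest for each of them. Fga, the alpha chain, was at 5137 CPM in PiZ library 1 and at 3158, 2855 and 2990.3 CPM in PiZ libraries 2 to 4. In PiZ/Chop-/- it was at 3384, 3297, 4016 and 3126 CPM. Fgb, the beta chain, was at 4475 CPM in PiZ library 1, at 2886, 2780.4 and 2930.5 CPM in the other PiZ libraries, and at 3079.8, 3156, 2910.2 and 2229 CPM in PiZ/Chop-/-. PiZ library 1 was thus the highest of all 8 for both chains, and the remaining libraries of the groups overlapped. Fgg, the gamma chain, was at 2306, 1418, 1466 and 1960.5 CPM in PiZ and at 1567, 1656, 1595 and 1563 CPM in PiZ/Chop-/-. Here PiZ library 1 was again the highest, with PiZ library 4 next. Log2 fold changes were -0.032 (SE 0.22), -0.20 (SE 0.21) and -0.16 (SE 0.20) for Fga, Fgb and Fgg, with adjusted p of 0.968, 0.737 and 0.781 (edgeR). Without PiZ library 1 they were 0.20, -0.0097 and -0.016.

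The 3 chains were compared across the 8 libraries as well. Pearson's r of log2 CPM was 0.78 for Fga with Fgb, 0.67 for Fga with Fgg and 0.73 for Fgb with Fgg. Their exact permutation p were 0.0389, 0.0798 and 0.0543 (0.0798 each after Benjamini-Hochberg adjustment over the 3 pairs). Spearman's rho was 0.67, 0.48 and 0.79 (exact permutation p = 0.0831, 0.243 and 0.0279, adjusted 0.125, 0.243 and 0.0838). Without the 2 libraries farthest from the median of the first gene r was 0.33, -0.059 and 0.30, and without PiZ library 1 alone it was 0.25, -0.033 and 0.19. The size of Pearson's r therefore rested on PiZ library 1. Spearman's rho was not computed without that library. Fgl1, a fibrinogen-like protein of hepatocytes, was at 1337 CPM in PiZ library 1 and at 434 to 684 CPM in the other PiZ libraries. In PiZ/Chop-/- it was at 396 to 512 CPM (log2 fold change -0.67, adjusted p = 0.361, edgeR). Fgl1 was chosen after its values were seen.

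**Figure D2:**
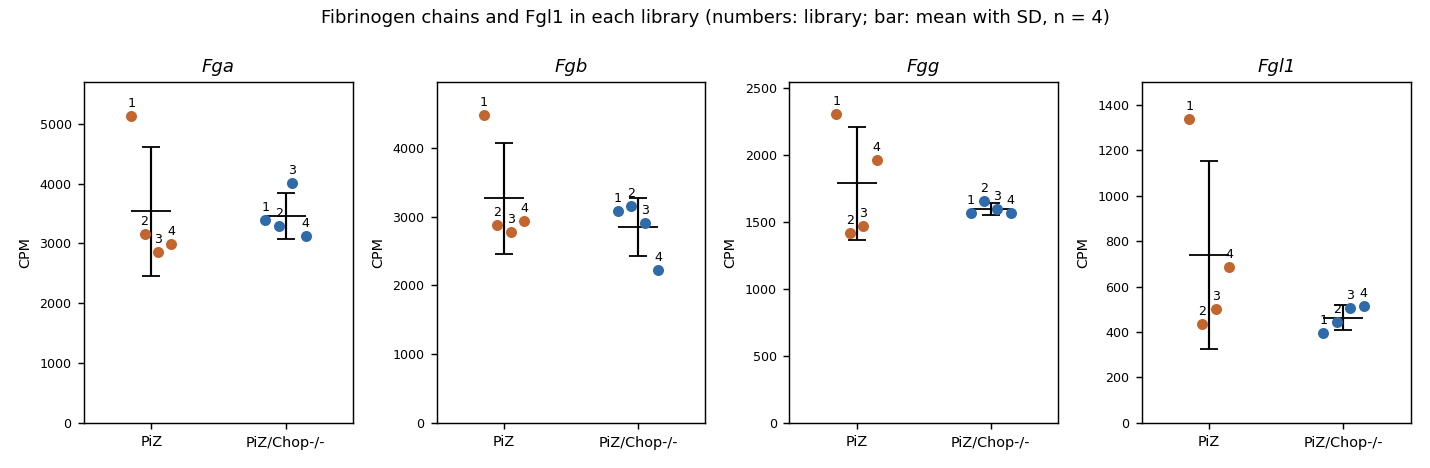
CPM (vertical axis, from 0) of Fga, Fgb, Fgg and Fgl1 in PiZ and PiZ/Chop-/- livers; each point is a library, numbered, and bars give the mean with SD (n = 4). PiZ library 1 is the highest point in each panel, for example 5137 CPM for Fga, while the remaining libraries of both groups overlap.

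Promoters of the beta and gamma chains are shown because these neighbouring genes encode parts of 1 protein. Each line gives the 250 bases before the RefSeq start site (build GRCm38.p6, which is mm10), read 5' to 3' on the gene's strand. Capitals mark matches to 4 short motifs searched on both strands. These were TGCAAT (the core of sites bound by CHOP with its C/EBP partners), CAAAGTC (HNF4), GTTAAT (1 arm of the HNF1 palindrome) and TGANTCA (AP-1), and no 2 matches marked overlap. Fgb lies at chr3:83049864-83050113 (minus strand) and Fgg at chr3:83007474-83007723 (plus strand).
Fgb: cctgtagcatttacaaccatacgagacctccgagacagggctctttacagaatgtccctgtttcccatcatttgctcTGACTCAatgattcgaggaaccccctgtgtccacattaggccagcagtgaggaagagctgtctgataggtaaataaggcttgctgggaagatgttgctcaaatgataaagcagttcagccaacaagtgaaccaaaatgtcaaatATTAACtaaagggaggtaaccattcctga
Fgg: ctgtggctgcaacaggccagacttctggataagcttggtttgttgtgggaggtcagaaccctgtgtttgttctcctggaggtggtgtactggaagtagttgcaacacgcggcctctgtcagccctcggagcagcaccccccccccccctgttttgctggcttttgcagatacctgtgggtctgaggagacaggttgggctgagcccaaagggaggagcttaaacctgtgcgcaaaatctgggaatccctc
Fgb held an HNF1 arm, written ATTAAC because it lies on the other strand, that begins 29 bases before the start, and an AP-1 match 173 bases before it. Fga held the same HNF1 arm 43 bases before its RefSeq start, a position that lies inside the gene as annotated in GENCODE. Its window is not printed because part of it is annotated as exon. None of the 4 motifs occurs in the Fgg window. HNF1 and HNF4 are transcription factors of hepatocytes, and a match is a description of letters only.

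In the plasminogen system 4 of 7 genes reached the counts needed for the test, and none passed it. Plg, plasminogen, the precursor of plasmin, was at 1086 CPM, 1290.3, 1163 and 1109 CPM in PiZ and at 1274, 1434, 1359 and 1711 CPM in PiZ/Chop-/-. Only 1274 CPM in PiZ/Chop-/- library 1 lay below a PiZ library. Its fold change came to 0.31 (SE 0.18), with an adjusted p of 0.491 by edgeR and 0.0571 by the exact two-sided permutation. Hrg, a histidine-rich glycoprotein that binds plasminogen and heparin, had 0.39 (adjusted p = 0.537), with the lowest level in PiZ library 4 (348 CPM, against 646 to 1008 CPM elsewhere); without that library it had 0.20. Cpb2, a carboxypeptidase that protects fibrin from plasmin, had -0.11 (adjusted p = 0.867); its highest level, 292 CPM, was also in PiZ library 4, and without that library the value was 0.15. Serpine2, protease nexin 1, an inhibitor of thrombin and of plasminogen activators, was at 3.69, 10.7, 12.2 and 4.75 CPM in PiZ and 6.50, 3.45, 5.96 and 5.12 CPM in PiZ/Chop-/-. PiZ libraries 2 and 3 were high and the other 6 ranged over 3.45 to 6.50 CPM, so the groups overlapped (log2 fold change -0.60, SE 0.43, adjusted p = 0.581). Its value came to -0.28 at the nearest to 0 when single libraries were left out.

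The remaining 6 members were too low for the test. Plat and Plau, the 2 plasminogen activators, and Plaur, the receptor of the second, had 0 to 2 counts in any library, which is too few to compare at this depth. Vwf encodes von Willebrand factor, which tethers platelets and carries factor VIII. It had 5, 16, 18 and 12 counts in PiZ libraries 1 to 4 and 5, 5, 4 and 5 counts in PiZ/Chop-/- libraries 1 to 4. In CPM that was 3.08, 7.77, 5.79 and 5.69 against 2.32, 2.87, 1.99 and 2.33, so the groups did not overlap in CPM. PiZ library 1 and PiZ/Chop-/- libraries 1, 2 and 4 had the same 5 counts, so the gap came from scaling to library size alone. Thbd, thrombomodulin, the thrombin receptor of endothelium, had 1, 20, 29 and 8 counts in PiZ and 3, 10, 7 and 3 in PiZ/Chop-/-. Tfpi, the inhibitor of the tissue factor pathway, had 5, 6, 7 and 8 counts in PiZ and 21, 8, 13 and 7 in PiZ/Chop-/-. Both overlapped between groups. In a fit with no filter on low counts their log2 fold changes were -1.22 for Vwf, -1.04 for Thbd and 1.03 for Tfpi (edgeR adjusted p = 0.388, 0.467 and 0.484).

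Marker genes of the cells that can supply these low transcripts differed in their summed level. Endothelial markers, 14 of 14 tested, had 11 fold changes above 0 and none past the threshold, with sums of 444 to 517 CPM in PiZ and 575 to 656 CPM in PiZ/Chop-/-. The 3 below 0 were Cdh5, Tek and Lyve1. Summed over a group's libraries, Vwf had 51 counts in PiZ and 19 in PiZ/Chop-/-, Thbd 58 and 23, and Tfpi 26 and 49. The 6 platelet and megakaryocyte markers, another source of Vwf, were all too low to be tested. Their sums were 7.59 to 12.6 CPM in PiZ and 5.17 to 6.97 CPM in PiZ/Chop-/-, and none was at 0 in every library. Itga2b (mean 6.00 CPM in PiZ, 3.34 CPM in PiZ/Chop-/-) and Pf4 (3.17 and 1.12 CPM) were lower in PiZ/Chop-/-, with groups that overlapped. The means of Ppbp, Gp9, Gp1bb and Treml1 were slightly higher there, the largest being 0.85 CPM (Treml1). The part of endothelial cells or of platelets and megakaryocytes in the Vwf counts was not tested.

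Macroglobulins are large inhibitors that trap proteases of every class. Mug1, murinoglobulin 1, had the lowest p of all members (ENSMUSG00000059908, chromosome 6, 121838541 to 121889057, plus strand, mm10). It was at 328, 671, 536 and 479.8 CPM in PiZ libraries 1 to 4 and at 883, 830.5, 823 and 940.0 CPM in PiZ/Chop-/- libraries 1 to 4. The PiZ libraries spread widely (504 ± 142 CPM, SD, n = 4) and the PiZ/Chop-/- libraries little (869 ± 54.3 CPM), and all 4 of the latter were higher. The log2 fold change was 0.79 (SE 0.21, 95% interval 0.33 to 1.24). By edgeR it missed the threshold, with an adjusted p of 0.105. The exact two-sided permutation gave 0.0286, as for any gene whose groups do not overlap, so that value adds nothing to the separation. Mug1 passed with DESeq2 (adjusted p = 0.0242) and in a fit that kept low genes (adjusted p = 0.0111). Over the 17 alternative fits its adjusted p ran from 0.0111 to 0.267 with a fold change of 0.53 to 0.96. Mug2, its close copy, was at 57.8, 100.6, 84.9 and 82.6 CPM in PiZ and at 95.7, 150.6, 140.5 and 120.2 CPM in PiZ/Chop-/-. Only PiZ/Chop-/- library 1 lay below a PiZ library (fold change 0.63, SE 0.21, adjusted p = 0.200). In the last 500 bases of their transcripts 20% of the 75-base windows of Mug1 and 41.8% of those of Mug2 also occur in another gene, mainly of the same family, so the division of counts within the family is uncertain. Pzp, pregnancy zone protein, the main alpha-macroglobulin of mouse plasma, had 0.28 (SE 0.19, adjusted p = 0.571), and its lowest level, 988 CPM, was in PiZ library 1, as for Mug1.

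**Figure D3:**
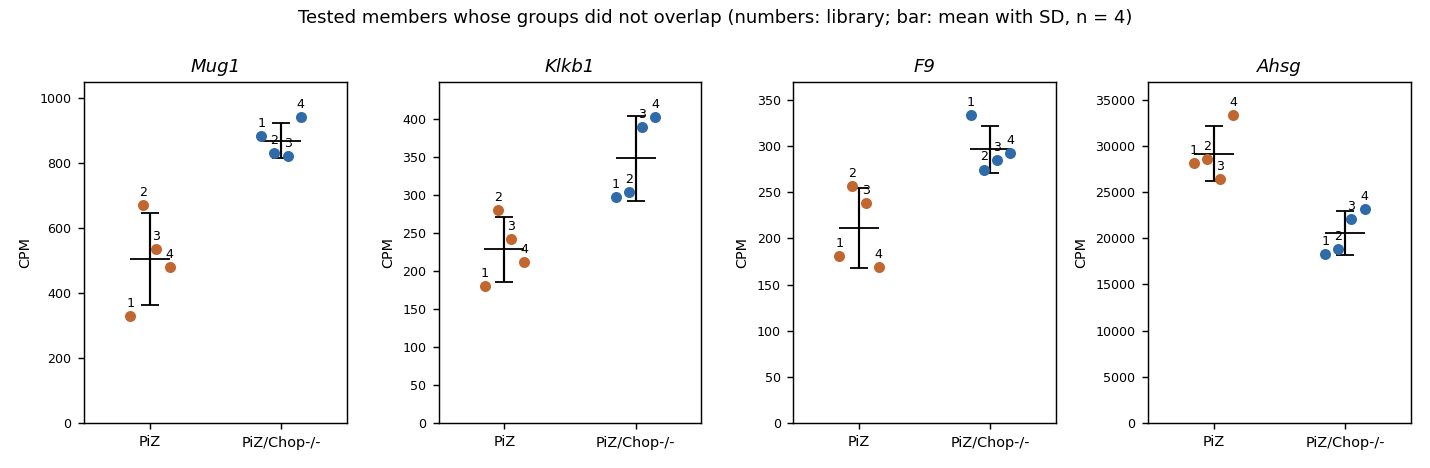
CPM (vertical axis, from 0) of Mug1, Klkb1, F9 and Ahsg in PiZ and PiZ/Chop-/- livers; each point is a library, numbered, and bars give the mean with SD (n = 4). The PiZ/Chop-/- points lie above the PiZ points for Mug1, Klkb1 and F9 and below them for Ahsg, with no overlap; none of the 4 passed edgeR's adjusted threshold.

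Inter-alpha-trypsin inhibitors are plasma proteins that stabilise hyaluronan. Several of their heavy chains (the Itih genes), though not all, are joined to bikunin, a protease inhibitor cut from the Ambp product. All 5 genes were tested and none passed. Itih1 was at 300.2 to 381 CPM in PiZ and 367 to 536 CPM in PiZ/Chop-/-, with an overlap of 1 library (log2 fold change 0.41, SE 0.18, adjusted p = 0.355, edgeR). Its neighbours within 56.8 kb of chromosome 14, Itih3 and Itih4, had -0.012 and -0.017 (adjusted p = 0.989 and 0.982). Itih2, on chromosome 2, was at 139, 101, 143 and 199 CPM in PiZ and 94.3, 137, 129 and 133 CPM in PiZ/Chop-/-. PiZ library 4 was high and PiZ/Chop-/- library 1 low, and the groups overlapped (-0.24, SE 0.21, adjusted p = 0.678). Ambp had 0.038 (adjusted p = 0.957), and its level varied by a CV of 4.70% in PiZ and 15.9% in PiZ/Chop-/-.

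Fetuins belong to the cystatin family of protease inhibitors. Ahsg, fetuin-A, a carrier of calcium phosphate in plasma, took 1.66% to 3.63% of all counts in a library (ENSMUSG00000022868, chromosome 16, 22891277 to 22899449, plus strand, mm10). It stood at 28088, 28581, 26440.1 and 33383 CPM in PiZ libraries 1 to 4 and at 18310.4, 18815, 22054 and 23161 CPM in PiZ/Chop-/- libraries 1 to 4. All 4 PiZ/Chop-/- libraries were lower than every PiZ library. The log2 fold change was -0.50 (SE 0.19, 95% interval -0.91 to -0.089), with an adjusted p of 0.287 (edgeR) and an exact two-sided permutation p of 0.0286; over the alternative fits the adjusted p ran from 0.0558 to 0.495. All 36 members together held 5.36% to 6.56% of the counts in PiZ and 4.42% to 5.49% in PiZ/Chop-/-, and Ahsg alone made up 36.9% to 55.4% of the members' counts.

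Ahsg is the first of 5 members in a row over 190.8 kb of chromosome 16, followed by Fetub, Hrg, Kng2 and Kng1. The fold changes in that order were -0.50, 0.28, 0.39, 0.23 and -0.022, and only that of Ahsg had an interval that left out 0. Without PiZ library 4 they were -0.41, 0.089, 0.20, 0.096 and -0.12. The log2 ratio of Ahsg to Hrg within a library was 5.13, 5.16, 5.36 and 6.58 in PiZ and 4.28, 4.68, 4.96 and 4.52 in PiZ/Chop-/-. Every PiZ ratio was the higher, by 0.95 on average; the pair was chosen after its values were seen, and Ahsg alone already separates the groups, so no test is given. For Ahsg over Fetub (fetuin-B, fold change 0.28, SE 0.26, adjusted p = 0.697 by edgeR), the mean ratios were 3.95 and 3.12 and the groups overlapped. PiZ library 4, with the highest Ahsg level and the lowest levels of Fetub, Hrg, Kng2 and Kng1, had the highest ratio in both pairs.

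Promoters are shown for Mug1 (chr6:121838291-121838540, plus strand) and Ahsg (chr16:22891765-22892014, plus strand), the member with the lowest p and the most abundant member with separate groups, with the same motifs in capitals.
Mug1: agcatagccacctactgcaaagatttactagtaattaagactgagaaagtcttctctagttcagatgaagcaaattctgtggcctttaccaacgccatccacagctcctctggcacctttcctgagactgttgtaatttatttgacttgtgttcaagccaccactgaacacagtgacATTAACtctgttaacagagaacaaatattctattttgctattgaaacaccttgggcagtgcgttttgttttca
Ahsg: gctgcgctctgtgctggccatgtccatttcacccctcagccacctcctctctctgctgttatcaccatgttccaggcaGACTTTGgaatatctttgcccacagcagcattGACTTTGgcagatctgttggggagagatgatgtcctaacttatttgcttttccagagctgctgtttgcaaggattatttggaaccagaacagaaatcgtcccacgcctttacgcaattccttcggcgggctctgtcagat
Mug1 held an HNF1 arm 73 bases before the start, and Ahsg held HNF4 matches 172 and 140 bases before it, all on the strand opposite to the gene. The RefSeq start of Ahsg lies downstream of the gene's first base in GENCODE, so its window falls within the gene as annotated there. The windows of F9 and Klkb1 held none of the 4 motifs. RefSeq windows were found for 29 of the 36 members (31 windows), not for Kng1, Plat, Plau, Plg, Proc, Thbd or Vwf. The HNF1 arm was in 7 of the 31 windows (22.6%, against 6.43% of 32851 windows of all genes), in F13b, Fga, Fgb, Itih1, Mug1, Proz and Pzp. The AP-1 motif was in 5 (16.1%, against 6.75%), in F2, Fgb, Hrg, Itih2 and Plaur. The HNF4 motif was in 2 (6.45%, against 3.84%), in Ahsg and Tfpi. The CHOP core was in 3 (9.68%, against 7.32%), in Cpb2, Hrg and Kng2, whose fold changes were -0.11, 0.39 and 0.23.

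The spread among libraries was compared as well. The coefficient of variation over the 4 libraries was larger in PiZ for 21 of the 30 tested members. Its median was 21.1% in PiZ and 14.9% in PiZ/Chop-/-. This difference was not tested. The same count was not made over all genes, so it cannot be called particular to these members. PiZ libraries 1 and 4 were the lowest of the 8 for 9 members each and the highest for 4 each. These are also the PiZ libraries with the lowest mean correlation with their own group (0.931 and 0.914). Without both of them 27 of 33 tested members had fold changes above 0 and none passed. The median was 0.15, beside 0.022 over all genes tested. The share above 0 was not counted over all genes in that fit. More members were tested than in the main fit, and these 2 libraries stood out for the same members. The count is therefore not comparable with the 19 of 30 in the main fit. PiZ/Chop-/- library 2 was the highest for 0 members and the lowest for 1.

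**Figure D4:**
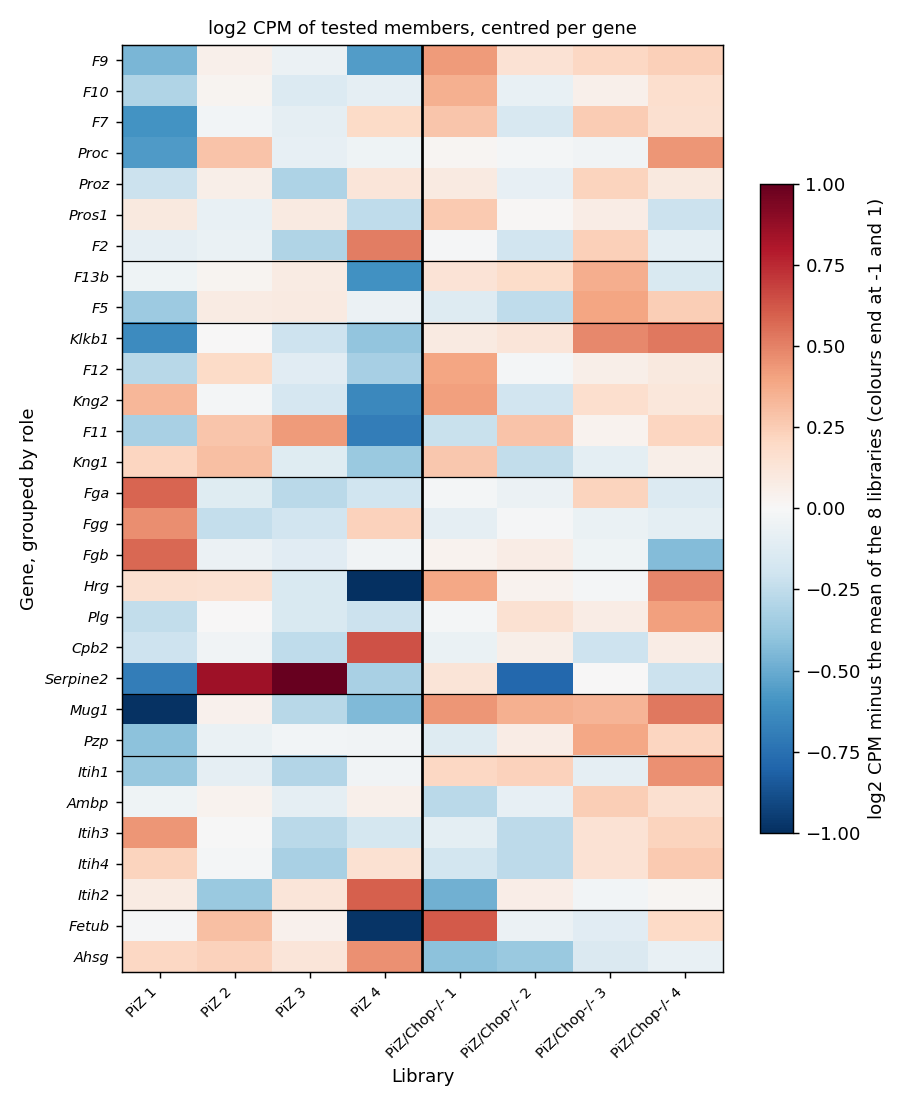
Log2 CPM of the 30 tested genes (rows, grouped by role) in the 8 libraries (columns), each gene centred on its mean over the libraries; red is higher and blue lower, and colours end at -1 and 1. PiZ library 1 is red for the fibrinogen genes and blue for Mug1, and PiZ library 4 is blue for Hrg, Fetub and Kng2 and red for Cpb2 and Itih2.

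Other genes of clotting and its control, 38 on a list that leaves out the members, were looked at in the same fit. Of these 23 were tested and 1 passed, a fall, beside 1.03% of all genes tested. Fold changes were above 0 for 15 of the 23 (65.2%, against 49.8% of all genes tested), with a median of 0.071. Anxa2 encodes annexin A2, a surface protein that binds plasminogen and its activator. It fell from 148, 243, 279.7 and 139 CPM in PiZ to 106, 116, 72.0 and 85.2 CPM in PiZ/Chop-/- (log2 fold change -1.09, SE 0.24, adjusted p = 0.0417, edgeR). The groups did not overlap. The call was lost with limma-voom (adjusted p = 0.0644), with a block of the replicate number (0.0756), and when PiZ library 2 or 3 was left out (0.107 and 0.146), or library 1, 3 or 4 of PiZ/Chop-/- (0.105, 0.169 and 0.148). Many cell types make Anxa2. Kupffer cell and macrophage markers had 11 of 12 fold changes below 0, none past the threshold, with sums of 1054 to 1536 CPM in PiZ and 809 to 972 CPM in PiZ/Chop-/-. Of 12 stellate cell and fibroblast markers 10 were tested, and all 10 were below 0, none past the threshold. Des and Pdgfrb were too low for the test. The sums of the 12 were 588 to 1037 CPM in PiZ and 632 to 750.4 CPM in PiZ/Chop-/-. The part of either kind of cell in the Anxa2 value was not tested.

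The next lowest p of that list belonged to Lrp1, Mug2 and Mcfd2. Lrp1 is the liver receptor that clears macroglobulin complexes and plasminogen activators from plasma. It was at 142, 108, 107 and 113 CPM in PiZ libraries 1 to 4 and at 229, 159.8, 243 and 178 CPM in PiZ/Chop-/- libraries 1 to 4, with no overlap (log2 fold change 0.78, SE 0.19, adjusted p = 0.0670, edgeR). It passed with DESeq2 (adjusted p = 0.00927), with every gene kept whatever its count (0.0160) and without PiZ/Chop-/- library 2 (0.0347), and its adjusted p over the 17 alternatives ran from 0.00927 to 0.209. Lrp1 lies on chromosome 10 at 242 kb from Ddit3, the deleted gene; any effect of the altered locus on its neighbours cannot be told apart from the loss of CHOP in this design. Mcfd2, which helps carry factors V and VIII out of the endoplasmic reticulum, was at 122, 83.6, 115 and 162 CPM in PiZ and 69.7, 104.0, 79.9 and 86.2 CPM in PiZ/Chop-/-. Its groups overlapped, and the fold change was -0.51 (adjusted p = 0.334), or -0.31 without PiZ library 4. The enzymes that carboxylate the vitamin K-dependent factors and recycle the vitamin, Ggcx and Vkorc1, had -0.040 and 0.15 (adjusted p = 0.957 and 0.781), and Serpinc1, antithrombin, had 0.090 (0.876). Bdkrb1 and Bdkrb2, the bradykinin receptors, had 0 counts in every library.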

How the data were processed

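The deposited files hold raw counts per gene for 8 liver libraries, judged from their whole numbers and unequal totals. The submitters' processing notes name STAR, HTSeq and the build mm10. Versions, annotation, strand setting and the handling of duplicates and of reads with several matches: not given in the sources used here. Per the labels' protocols, QuantSeq libraries were read from one end with 75 bases. Groups and replicate numbers come from the sample titles.

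Of 52550 mouse identifiers 52403 were found in GENCODE M21 (mm10), which gave symbols and positions. The main test was glmQLFTest after a robust glmQLFit (edgeR 4.0.16, R 4.3.3), on TMM-scaled libraries with no covariate, keeping genes that pass filterByExpr by group (minimum count 10), with Benjamini-Hochberg adjustment over all 8669 genes tested and a threshold of 0.05. SE is the log2 fold change divided by the square root of F, and intervals are at 95%. CPM uses TMM-scaled library sizes. Exact permutation tests took log2 CPM (prior count 2) over the 70 assignments of 4 of 8 libraries, or, for correlations, all pairings. Members were counted, with no set test.

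Values in full were given for members past the threshold or with groups that did not overlap, the 3 largest rises and falls, Fga, Fgb, Fgg, F2 and Plg; and, of the other pathway genes, those past the threshold and the 4 of lowest p. The members and lists were chosen with earlier results of these data known. Marker lists of cholangiocytes (2 of 7 tested), neutrophils (2 of 7), lymphocytes (0 of 8) and red cells (5 of 6) had none past the threshold. Alternatives were RLE, library size only, TMM without the 20 most abundant genes, DESeq2 1.42.0 without the filter, limma-voom 3.58.1, no filter, 5 CPM in 4 libraries, a replicate block, each library left out, and PiZ libraries 1 and 4 left out together. Promoters are from RefSeq (GRCm38.p6). No 2 libraries agreed within sampling noise.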

Additional observations from a re-analysis of the deposited data

Results flagged for a closer look

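Each tested member, the 4 other pathway genes of lowest p, Ddit3 and SERPINA1 were examined in each group of 4 for a library far from the other 3, by the 95% critical value of Dixon's criterion; chance marks about 1 in 20 groups, and 4 of 72 were marked. PiZ library 1 accounted for 3 of the 4. It was the highest for Fga (5137 CPM, against 2855 to 3158 CPM in the other PiZ libraries) and for Fgb (4475 CPM, against 2780.4 to 2930.5 CPM), and the lowest for Pzp (988 CPM, against 1255 to 1290.3 CPM). Without it the log2 fold changes were 0.20, -0.0097 and 0.19. PiZ/Chop-/- library 4 was the highest for Proc, protein C (730.9 CPM, against 526 to 547 CPM), and without it the log2 fold change of Proc was 0.064.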

How the results depend on the processing

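Over the 17 alternative fits, 18 of the 30 tested members kept the sign of their fold change and 12 did not. No member passed in 15 of the fits; 1 (Mug1) passed with DESeq2 and 1 (Mug1) with no filter on low counts. Genes called in all came to 208 with DESeq2, 357 with no filter on low counts, and 46 to 169 with single libraries left out, against 89. Other pathway genes called came to 2 with DESeq2 and 2 with no filter, 0 with limma-voom, 0 with the replicate block, and 0 to 2 with single libraries left out, against 1. Replicate numbers are shared between the groups but samples of the same number did not deviate together (correlations 0.046, -0.051, 0.0061 and 0.049; 1 of 4 correlated best with its own number). Under the block Fga stood at 0.0052 and Itih3 at 0.0026, and the number of members called was 0.

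Signs turned in these other fits. Without PiZ libraries 1 and 4 together the log2 fold changes were 0.18 for F2, -0.27 for F11, 0.20 for Fga, 0.0073 for Fgb, 0.15 for Fgg, 0.11 for Cpb2, 0.012 for Itih2, 0.15 for Itih3 and 0.17 for Itih4. With library size only Pros1 was at -0.0091 and Ambp at -0.030; with limma-voom Fga was at 0.0020; with the 20 most abundant genes left out of the scaling Itih3 was at 0.0016, and with no filter at 0.0021. With single libraries left out the ranges were -0.15 to 0.16 (F2), -0.078 to 0.27 (F11), -0.12 to 0.084 (Kng1), -0.12 to 0.20 (Fga), -0.011 to 0.15 (Pros1), -0.21 to 0.15 (Cpb2), -0.039 to 0.13 (Ambp), -0.099 to 0.16 (Itih3) and -0.12 to 0.067 (Itih4). The cause was not tested. Library size only moved the median of all genes to -0.077. Depth limits the 6 lowest members, which have at most 29 counts in a library.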
